A study of Mus musculus with 192 samples.

Results

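Temporal bone (TpB) was compared with mandibular bone (MdB) in wild-type mice kept on the ground (GC_WT), of strain C57BL/6 in the labels and C57BL/6J in the methods of the study. The labels give an age of 12 weeks. The methods give this age for the time before the flight period, so the mice were older when the bones were taken. The members were all libraries whose labels give the genotype WT, the condition ground control and one of these bones. They numbered 9 of the 192 libraries of the series, with 6 TpB mice (GC03, GC05, GC06, GC07, GC08 and GC10) and 3 MdB mice (GC03, GC07 and GC08). Each library came from a single male mouse, so mice GC03, GC07 and GC08 gave both bones. The series as a whole measured poly(A) RNA or rRNA-depleted RNA in 9 tissues of WT and Nrf2KO mice that were flown on the International Space Station (FL) or kept on the ground (GC), and both bones were also sampled in GC_KO, FL_WT and FL_KO mice. The Nrf2KO mice lack Nrf2 (gene Nfe2l2), a stress-response transcription factor, in the whole body, whereas GC_WT mice carry no engineered allele and received no treatment. How far teeth, marrow, muscle and adjoining brain were removed when the bones were taken is not given in the sources used here.

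The temporal bone of the skull surrounds the cochlea and the vestibular organs, carries the air-filled middle ear, is crossed by the vestibulocochlear and facial nerves, and faces the cerebellum on its inner side. Its marrow makes blood cells, and jaw and neck muscles attach to it. The mandible of a mouse holds molars and an incisor that grows throughout life, so its ameloblasts (the enamel-forming epithelium) and odontoblasts (the dentin-forming cells) stay active in the adult. Enamel is built on a scaffold of amelogenin, ameloblastin and enamelin that the proteases Mmp20 and Klk4 later remove, while dentin and bone share collagen type I and a family of acidic phosphoproteins. In bulk RNA of this kind, fewer cells of a type and less RNA per cell cannot be told apart.

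The deposited expected read counts summed to 14316873 to 15088449 reads in the TpB libraries and to 14373445 to 14472033 reads in the MdB libraries. At 1 TPM or more (a level per transcript that is corrected for length and depth), 16460 to 17458 genes were detected in TpB and 14906 to 15056 in MdB. The 3 MdB libraries were close to each other (Pearson correlation of log2 TPM, 0.982 to 0.985), the 6 TpB libraries were more spread (0.768 to 0.966), and pairs across the bones lay at 0.553 to 0.644. These are correlations across genes, which are not independent replicates. The first principal component held 75.2% of the variance over 13740 genes and separated the bones, with MdB between -130.1 and -127.1 and TpB between 47.2 and 79.0. By the library numbers in the labels, 3 TpB libraries (GC03, GC05 and GC06) fall in the range of the MdB libraries and the other 3 (GC07, GC08 and GC10) in a later range. Against the same MdB libraries, the first 3 gave 10081 called genes and the later 3 gave 9681. The targeted gene of the series, Nfe2l2, read 55.5 to 73.9 TPM in GC_WT TpB and 18.3 to 36.1 TPM in GC_KO TpB. Within GC_WT its mean was 66.1 TPM in TpB (SD 7.30, 6 mice) and 99.6 TPM in MdB (SD 4.84, 3 mice), so that it was lower in TpB by edgeR (log2 fold change -0.80 ± 0.15 (SE), adjusted p 0.00166).

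The difference between the bones was broad. Of 17959 genes tested with edgeR's quasi-likelihood test, 6156 (34.3%) were called higher in TpB and 4877 (27.2%) lower at an adjusted p under 0.05, and these 2 shares are the background for every count below. Here "called" means past that threshold, a log2 fold change is TpB over MdB from this fit, and a level is in TPM. The changes at the extreme lay mostly on the TpB side, where 1343 genes were called at least 32-fold higher and 150 at least 32-fold lower. In 6335 genes every TpB library lay above every MdB library, in 3174 every one lay below, and in 8450 the ranges overlapped. The median log2 fold change over all genes was 0.08 in this fit. From the group means of TPM, with 1 added, it was 0.23 over the 13617 tested genes with at least 5 TPM in a group. The 2 medians thus cover different sets of genes. Genes were ranked by fitted change among those called with at least 5 TPM in a group and no overlap in TPM. Among the 10 genes with the largest fall in TpB were the enamel and dentin genes Amelx, Ambn, Enam, Dspp, Amtn, Klk4, Mmp20 and Acp4. Among the 10 with the largest rise were Cfd, Neurod1, Zic1, Mobp, Gata1 and Cd177, which belong to fat, brain, red cell and neutrophil programmes. Cfd, Mobp and Gata1 had no MdB read, so their fitted values and ranks depend on the prior count.

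**Figure D1:**
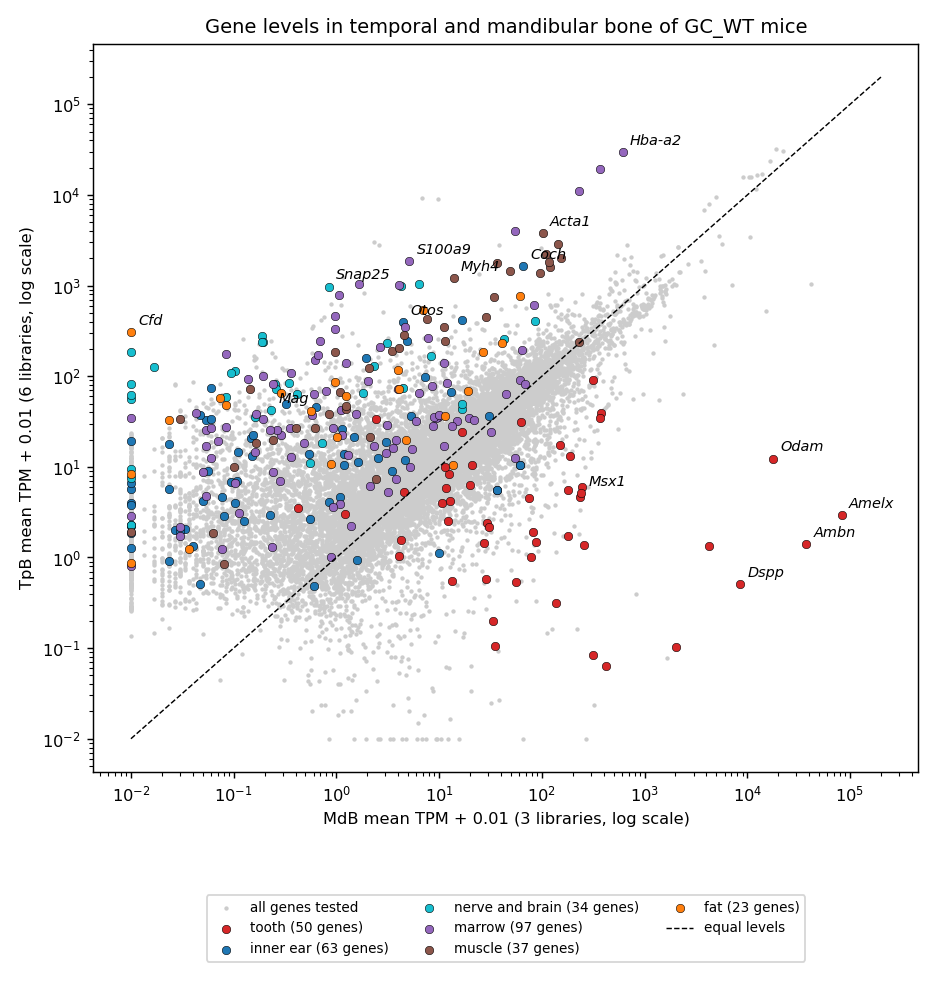
Mean level of each of the 17959 genes tested in MdB (x axis, TPM + 0.01, 3 libraries, log scale) and in TpB (y axis, TPM + 0.01, 6 libraries, log scale), with the members of the tooth, inner ear, nerve and brain, marrow, muscle and fat lists in colour and the dashed line at equal levels. The tooth genes lie mostly below the line, with Amelx at 82880 TPM in MdB and 2.95 TPM in TpB, and the members of the other lists lie mostly above it.

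Tooth transcripts stood on the MdB side of the comparison. Of 50 tooth genes tested, 43 were lower in TpB, 3 were higher and 4 were not called, with a median log2 fold change of -4.15 against 0.08 over all genes. All 14 genes of the enamel list and all 7 of the dentin list were lower in TpB, and in the enamel list no TpB library reached the lowest MdB library. Together the 14 enamel genes took up 106980, 139640 and 190710 TPM in the 3 MdB libraries, which is 10.7% to 19.1% of all transcripts, whereas their sum in TpB lay between 32.2 and 78.3 TPM with a median of 46.6.

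Amelogenin (Amelx), the main protein of forming enamel, measured 58458, 76241 and 113941 TPM in MdB and 0, 1.96 and 8.31 TPM at the lowest, median and highest TpB library. The groups were far apart, with a log2 fold change of -14.94 ± 1.55 (SE) and an adjusted p of 4.37e-05. Ameloblastin (Ambn), which attaches ameloblasts to the matrix, measured 24941, 37976 and 49449 TPM in MdB and at most 3.88 TPM in TpB (log2 fold change -14.85 ± 1.49). Enamelin (Enam), the largest enamel matrix protein, measured 1275, 2045 and 2773 TPM in MdB and at most 0.24 TPM in TpB (log2 fold change -14.51 ± 0.98, and -15.25 without TpB GC06). Within MdB all 3 scaffold genes had the same order, lowest in GC03 and highest in GC08. The genes of later enamel stages were as one-sided. Odam, a protein of maturing ameloblasts and of the gum attachment, measured 18035, 18211 and 17498 TPM in MdB, without the order of the scaffold genes, and amelotin (Amtn) measured 3161, 3895 and 5560 TPM. The protease gene Mmp20, active early, read 278, 324 and 337 TPM, and Klk4, active late, read 333, 426 and 518 TPM. For Klk4 only 3 reads were found over the 6 TpB libraries, and the ratio of MdB to TpB was 9789, with a counting interval of 3349 to 47475 that covers counting error only. The smaller falls in the list belonged to genes that other epithelia also use, namely Tuft1 (log2 fold change -1.87 ± 0.12), Fam83h (-1.81 ± 0.30) and the integrin gene Itgb6 (-2.59 ± 0.31).

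Dentin sialophosphoprotein (Dspp), the marker of odontoblasts, measured 9441, 8956 and 7207 TPM in MdB and 0, 0.47 and 1.20 TPM at the lowest, median and highest TpB library (log2 fold change -14.26 ± 1.07, adjusted p 7.04e-06). Its order over the MdB mice was the reverse of that of Amelx, with GC03 highest and GC08 lowest. Wnt10a, a tooth signalling gene, fell from 70.2 to 83.4 TPM in MdB to 0.14 to 1.81 TPM in TpB, and nestin (Nes), which odontoblasts and neural precursors share, from 171 to 223 TPM to 9.50 to 16.7 TPM. Of the dentin genes that bone cells also use, Dmp1, Smpd3 and Notum moved less, with log2 fold changes of -1.21, -1.24 and -1.22. The 6 TpB values of Dmp1 (22.4 to 43.0 TPM) overlapped the MdB values of 36.8, 104 and 47.2 TPM. Phex, which osteocytes also use, fell further, with log2 fold changes of -5.79 to -5.16 over the alternative fits.

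The small signal of Amelx, Ambn and Dspp in TpB followed the library numbers, that of Dspp less sharply. Amelx was at 5.46, 8.31 and 3.91 TPM in GC03, GC05 and GC06, the TpB libraries numbered next to the MdB libraries, and at 0 TPM in GC07, GC08 and GC10. Ambn was at 2.25, 3.88 and 2.19 TPM in the first 3 and at 0.09, 0 and 0 TPM in the later 3. The TpB libraries of the other mice split alike, since Amelx lay at 5.63 to 12.0 TPM in 8 libraries of the first range, at 43.0 TPM in FL06, and at 0 to 0.23 TPM in all 9 of the later range. Dspp was at 0.74, 1.20 and 0.58 TPM in GC03, GC05 and GC06 and at 0.09, 0.35 and 0 TPM in GC07, GC08 and GC10. In the other mice Dspp read at least 0.62 TPM in the first range and at most 0.53 TPM in the later range. Odam did not follow the numbers: it was highest in GC06 and GC07 (31.5 and 38.2 TPM) and at 0 TPM in GC08 and GC10. The part of the library numbers in these traces was not tested, and the tooth counts were 42 of 50 lower with the first 3 TpB libraries alone and 43 with the later 3. With the first 3 alone the log2 fold changes of Amelx, Ambn and Enam were -13.93, -13.85 and -13.51. With the later 3, where Amelx and Enam were at 0 TPM and Ambn at most at 0.09 TPM, the fitted values of -22.10, -20.27 and -19.65 depend on the prior count and are no bound.

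Many of these genes lie in 2 clusters of secreted phosphoproteins on chromosome 5 (coordinates on GRCm38, the mm10 build). The enamel cluster runs over 621.0 kb from Odam (chr5:87885029-87894174) through Csn3, Amtn (chr5:88376108-88385916) and Ambn (chr5:88455991-88468531) to Enam (chr5:88487975-88506049), all on the plus strand. Its 5 tested genes were all lower in TpB, including the casein gene Csn3 at 11.7 ± 1.82 TPM in MdB (SD, n = 3) and 0.23 ± 0.17 TPM in TpB (SD, n = 6). The 9 other annotated protein-coding genes between them had no test result under the same versioned identifier. The next gene beyond Enam, the plasma cell gene Jchain (chr5:88519809-88527891, minus strand), went the other way (log2 fold change 5.03 ± 0.75). The dentin and bone cluster runs over 270.3 kb from Dspp (chr5:104170712-104180127) to Spp1 (chr5:104435118-104441050) and was divided. Dspp and Dmp1 at its start were lower in TpB, Ibsp in the middle was not called (0.38 ± 0.25, adjusted p 0.205), and Mepe and osteopontin (Spp1) at its end were higher. Mepe, an osteocyte gene, read 8.54, 12.5 and 23.9 TPM at the lowest, median and highest TpB library and 0.07, 0 and 0 TPM in MdB, where 1 read was found and the ratio was 547 (counting interval 98.0 to 21621). Spp1, an abundant bone matrix protein that other cell types also secrete, read 856, 1027 and 2193 TPM in TpB and 27.5, 17.6 and 28.5 TPM in MdB (log2 fold change 5.55 ± 0.51, adjusted p 2.18e-05). Gm17660, a predicted gene whose start lies 93.1 kb before that of Dspp, was found at 1274 to 2228 TPM in MdB and by a single read in TpB. Sparcl1, a matrix protein gene whose start lies 57.0 kb before that of Dspp and so outside the cluster, was higher in TpB (1.94 ± 0.29).

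**Figure D2:**
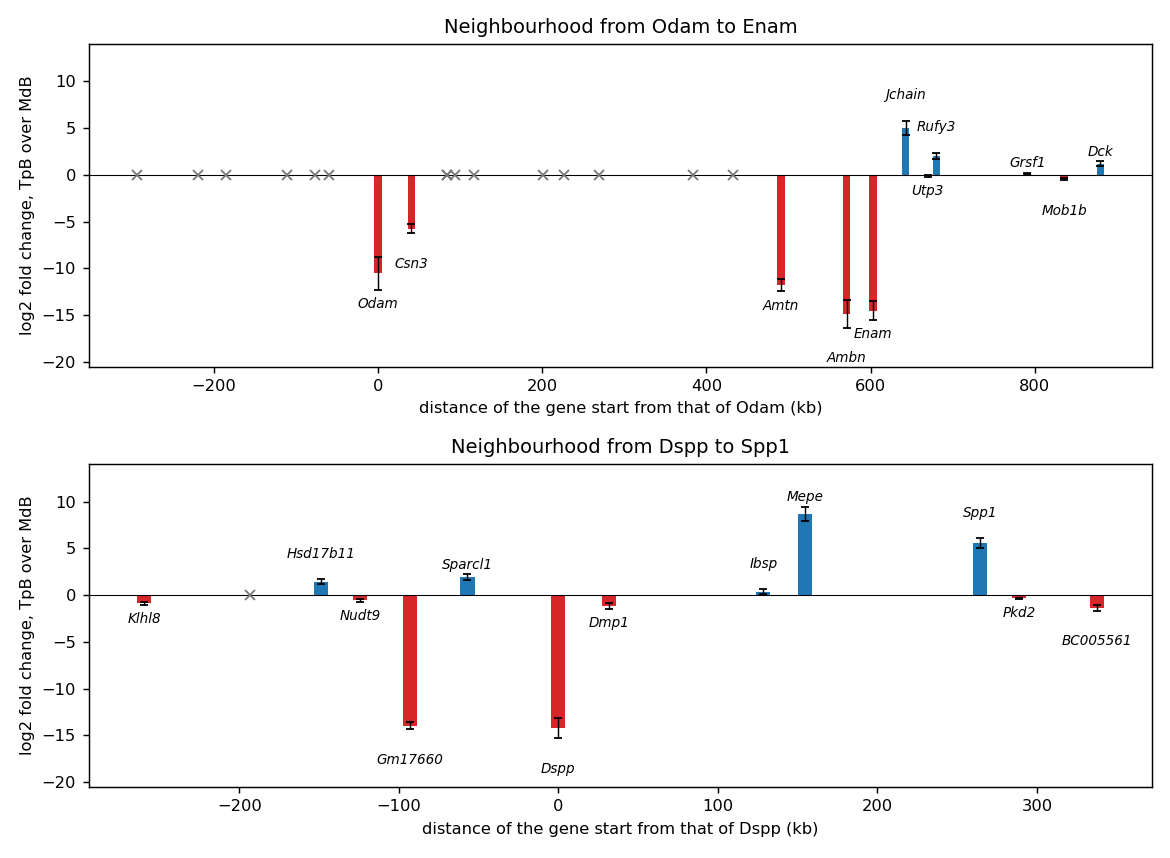
Log2 fold change of TpB over MdB (bars, with 1 SE) by distance of the gene's start from the start of Odam (top) or of Dspp (bottom) in kb. Red bars are genes lower and blue bars genes higher in TpB, and crosses are protein-coding genes without a test result under the same versioned identifier. All tested genes from Odam to Enam are negative, down to -14.85 for Ambn, whereas the lower cluster turns from -14.26 at Dspp to positive values at Mepe and Spp1 (5.55).

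The 250 bases before the start of 5 of these genes are given because the genes sit at the opposite ends of the comparison: Amelx, Ambn and Enam are among the largest falls in TpB, and Mepe and Spp1, at the far end of the cluster that Dspp starts, were higher. The sequences are from RefSeq on GRCm38.p6, written 5′ to 3′ on the gene's strand. Capitals mark the RUNX letters ACCACA or TGTGGT, the TATA letters TATAAA or TTTATA, and the CCAAT letters CCAATC or GATTGG, and the last of these was added after the sequences had been read. Amelx lies on the minus strand of chromosome X (chrX:169187210-169187459) and the others on the plus strand of chromosome 5 (Ambn chr5:88455741-88455990, Enam chr5:88487725-88487974, Mepe chr5:104325079-104325328, Spp1 chr5:104434861-104435110).
Amelx: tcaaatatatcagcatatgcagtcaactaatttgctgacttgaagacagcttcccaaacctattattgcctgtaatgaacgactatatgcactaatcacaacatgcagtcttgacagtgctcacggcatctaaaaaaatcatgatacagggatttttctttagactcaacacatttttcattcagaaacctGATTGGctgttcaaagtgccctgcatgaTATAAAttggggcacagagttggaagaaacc
Ambn: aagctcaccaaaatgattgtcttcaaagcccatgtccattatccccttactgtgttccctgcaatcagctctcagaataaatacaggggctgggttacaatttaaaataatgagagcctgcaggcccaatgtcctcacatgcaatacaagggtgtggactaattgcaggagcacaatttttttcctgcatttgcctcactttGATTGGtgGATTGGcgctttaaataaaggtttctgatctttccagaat
Enam: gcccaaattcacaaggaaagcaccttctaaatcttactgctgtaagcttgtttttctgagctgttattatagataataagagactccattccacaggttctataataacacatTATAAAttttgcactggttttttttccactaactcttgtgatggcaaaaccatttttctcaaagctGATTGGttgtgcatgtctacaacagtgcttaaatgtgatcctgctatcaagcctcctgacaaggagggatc
Mepe: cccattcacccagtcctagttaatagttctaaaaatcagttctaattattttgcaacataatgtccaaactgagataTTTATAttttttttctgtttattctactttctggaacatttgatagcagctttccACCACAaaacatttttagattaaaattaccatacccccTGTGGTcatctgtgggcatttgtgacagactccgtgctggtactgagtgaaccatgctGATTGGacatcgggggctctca
Spp1: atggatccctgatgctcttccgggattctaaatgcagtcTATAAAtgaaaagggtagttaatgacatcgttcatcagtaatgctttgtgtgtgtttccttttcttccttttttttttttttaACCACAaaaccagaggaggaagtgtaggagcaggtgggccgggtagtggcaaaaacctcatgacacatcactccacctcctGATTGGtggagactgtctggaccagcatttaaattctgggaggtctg
All 5 windows held the CCAAT letters, which 15.1% of the 27025 promoters in the table hold on either strand. These letters were chosen from the windows themselves, so the 5 matches are no evidence. RUNX letters stood in the windows of Mepe and Spp1, and in 14.2% of all promoters. TATA letters stood in those of Amelx, Enam, Mepe and Spp1, and in 13.0% of all promoters, but only in Amelx at 31 bases before the start, against 137, 173 and 211 in the others. Over the whole enamel list, 10 genes had a promoter in the table. Of these, 6 held the CCAAT letters (Amelx, Ambn and Enam among them), 3 the TATA letters and 1 the RUNX letters. The CCAAT letters also stood in 5 of 10 promoters of the jaw and tooth patterning list and 5 of 9 of the proliferation list. Their shares were lower in the other lists. These matches are a description of the letters and not of binding.

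Transcription factors that pattern the jaw and the tooth went with the mandible. Of 20 tested, 18 were lower in TpB, Barx1 was higher and Pax9 was not called (Hand1 had too few reads). The Dlx genes specify the lower jaw in the embryo, and all 6 tested were lower in TpB, from Dlx4 (log2 fold change -6.97 ± 0.29) to Dlx5 (-2.76 ± 0.18). Dlx3, which also acts in ameloblasts and odontoblasts, measured 236, 215 and 258 TPM in MdB and 3.26, 4.87 and 5.83 TPM at the lowest, median and highest TpB library (log2 fold change -5.89 ± 0.15). Hand2, which marks the distal end of the lower jaw, read 156, 143 and 117 TPM in MdB and at most 0.93 TPM in TpB (-8.96 ± 0.61, and -10.01 without TpB GC06). The homeobox genes of tooth mesenchyme behaved alike, with Msx1 at 196 to 286 TPM in MdB and 2.92 to 8.38 TPM in TpB, and Msx2 at 178 to 179 TPM and 0.72 to 3.13 TPM. Alx1, a factor of facial mesenchyme, reached at most 0.37 TPM in TpB, against at least 29.6 TPM in MdB. The exception, Barx1, a factor of proximal jaw and of stomach, read 0.25 to 6.61 TPM in TpB and 0.26 to 0.53 TPM in MdB, so that its groups overlapped. It was called with an adjusted p of 0.0291 (log2 fold change 2.86 ± 0.98). The call was lost when MdB GC03, GC07 or GC08 was left out (adjusted p 0.0843, 0.101 and 0.0699) and with the mouse as a block (2.08, adjusted p 0.145).

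Genes of the periodontal ligament and tendon were mixed. Of 9 tested, 4 were lower in TpB, 2 were higher and 3 (Aspn, Scx and Tnmd) were not called. Periostin (Postn), abundant in the ligament that holds the tooth, read 348, 390 and 402 TPM in MdB and 14.6, 41.9 and 52.8 TPM at the lowest, median and highest TpB library (log2 fold change -3.53 ± 0.37). Tenascin C (Tnc) and fibromodulin (Fmod) were also lower (-3.63 ± 0.22 and -2.04 ± 0.19). Thbs4, a thrombospondin of tendon and muscle attachments, was higher in TpB, with 20 to 49.4 TPM against 1.5 to 3.39 TPM. Kera, a cornea and tendon proteoglycan, was called (1.14 ± 0.37, adjusted p 0.0233), but not without MdB GC07 or GC08 (adjusted p 0.104 and 0.0979) or with the mouse as a block (0.66, adjusted p 0.207).

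Inner ear transcripts were the counterpart on the TpB side. Of 63 tested, 57 were higher in TpB, 3 were lower and 3 were not called, and the median log2 fold change was 5.44 (5.13 with the genes that had no MdB read set at their lower bound). The 16 genes of the extracellular matrices and supporting cells summed to 1575 to 5989 TPM in TpB and to 91.3 to 110 TPM in MdB. Cochlin (Coch), the most abundant protein of the inner ear matrix, read 831, 1123 and 3176 TPM at the lowest, median and highest TpB library and 72.0, 67.2 and 59.5 TPM in MdB (log2 fold change 4.44 ± 0.63, adjusted p 0.000274). Otospiralin (Otos), made by fibrocytes of the cochlea, read 158, 298 and 804 TPM in TpB and 2.85, 3.35 and 7.21 TPM in MdB (6.24 ± 0.85). In both genes the lowest TpB library exceeded the highest MdB library by an order of magnitude or more, and GC03 and GC10 stood highest. The gap junction genes Gjb2 and Gjb6, whose connexins couple supporting cells, had TpB medians of 154 and 118 TPM, against at most 8.67 and 2.13 TPM in MdB. The tectorial membrane genes Ceacam16 and Otog and the attachment protein gene Otoa had TpB medians of 47.8, 22.2 and 14.6 TPM, and none of them passed 0.25 TPM in an MdB library. For Otol1, a collagen-like protein of the otoliths, no read was found in MdB, and TpB was at least 35.2-fold higher. Oc90, the other otolith protein gene of the list, did not pass 1 TPM in any library and was not called.

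Hair cells, the sensory cells of hearing and balance, gave low levels in TpB. Of 19 tested, 17 were higher in TpB, Cdh23 was lower and Pcdh15 was not called. The list summed to 73.6 to 207 TPM in TpB and to 20.02 to 23.4 TPM in MdB, and the log2 ratio of the sums was 1.01 on CPM (counts scaled by depth and not by length). Oncomodulin (Ocm), a calcium buffer of outer hair cells, read 8.82, 11.9 and 38.3 TPM at the lowest, median and highest TpB library and had no read in MdB, so that TpB was at least 78.5-fold higher. The same held for the hair cell factor Pou4f3 (2.56 to 8.06 TPM, at least 95.6-fold higher) and the stereocilia gene Loxhd1 (2.06 to 7.90 TPM, at least 183-fold higher). Otof, needed for transmitter release, Espn, an actin bundler of stereocilia, and Ush1c, a scaffold at the tip links, were higher with log2 fold changes of 2.12 ± 0.58, 2.42 ± 0.40 and 3.71 ± 0.64, and each had over 1 TPM in at least 1 MdB library. The tip link gene Cdh23 went the other way, at 12.0, 8.78 and 9.28 TPM in MdB and 0.73 to 1.73 TPM in TpB (-3.38 ± 0.29), and its partner Pcdh15 was not called (-1.01 ± 0.43, adjusted p 0.0657). Atoh1 and Grxcr1 had too few reads to be tested and read 0 TPM in MdB and at most 0.58 and 1.09 TPM in TpB.

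The stria vascularis, which secretes the potassium-rich fluid of the cochlea, was represented by 8 genes, all higher in TpB. Kcne1, a subunit of its potassium channel, read 13.7, 22.2 and 71.5 TPM at the lowest, median and highest TpB library and 0, 0 and 0.15 TPM in MdB (log2 fold change 8.18 ± 1.08, and 11.87 without MdB GC08, which held all of its MdB reads). Esrrb and Lrp2, a nuclear receptor and an endocytic receptor of the tissue, had TpB medians of 15.9 and 28.0 TPM and at most 0.23 and 0.11 TPM in MdB. Kcnj10, a potassium channel that glia also carry, had another spread, with its highest values in GC08 and GC07 (87.0 and 59.0 TPM). Of the 13 otic patterning factors tested, 10 were higher, among them Pou3f4 (9.75 to 32.6 TPM against at most 0.04 TPM), Gata3 (8.50 to 23.4 against at most 0.15 TPM) and Hmx3 (2.26 to 12.9 TPM with no MdB read, at least 68.9-fold higher). The 2 lower ones were Dlx5 and Dlx6, which also pattern the jaw, and Tbx1 was not called, at 28.5 to 42.8 TPM in TpB and 28.1 to 35.2 TPM in MdB. The 7 melanocyte genes, tested because pigment cells lie in the stria, were all higher, with Dct at 48.5 to 192 TPM in TpB and 6.69 to 7.54 TPM in MdB.

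**Figure D3:**
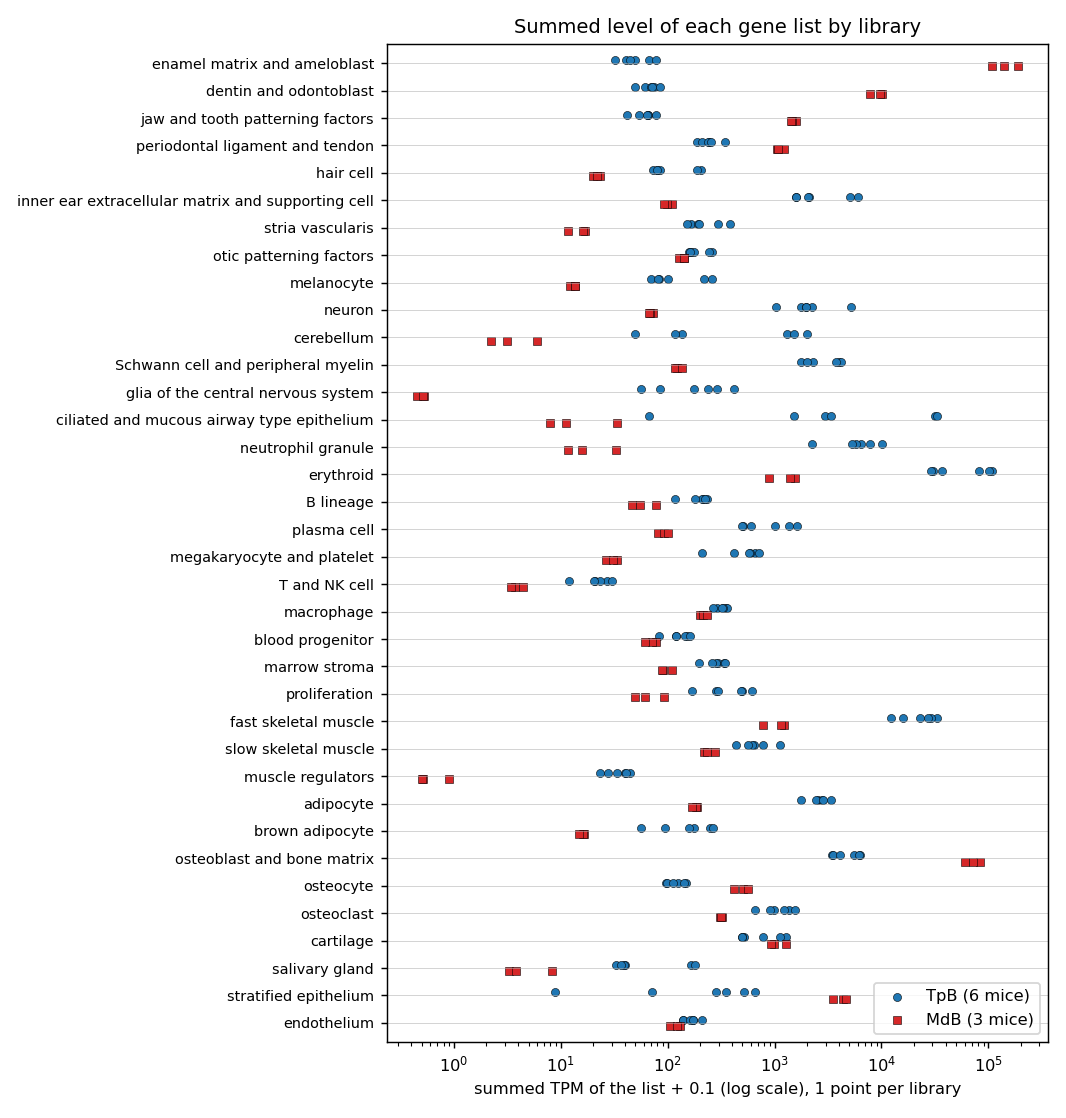
Summed level of each of the 36 gene lists (x axis, summed TPM + 0.1, log scale) with a point for each TpB library (blue circles, 6 mice) and each MdB library (red squares, 3 mice). The enamel, dentin and jaw patterning lists lie higher in MdB, as do the osteoblast and stratified epithelium lists, whereas the inner ear, nerve, marrow, muscle and fat lists lie higher in TpB, with enamel at 32.2 to 78.3 TPM in TpB and at 106980 to 190710 TPM in MdB.

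Nerve and brain transcripts were higher in TpB as well, with 30 of 34 tested genes called, none lower, and a median log2 fold change of 8.03 (7.45 with bounds). Nerve trunk genes were high in every TpB library. The myelin-associated glycoprotein gene Mag, an adhesion protein between myelin and axon, read 14.2, 38.3 and 82.4 TPM at the lowest, median and highest TpB library and 0.12, 0.25 and 0.30 TPM in MdB (log2 fold change 7.27 ± 0.67, adjusted p 2.28e-05). All 10 Schwann cell and myelin genes were higher, with the lowest change in Ncmap (1.16 ± 0.37). The synaptic gene Snap25 read 305, 887 and 1928 TPM in TpB and 0.64, 0.37 and 1.49 TPM in MdB (10.02 ± 0.81, and 10.82 without MdB GC08), and the neurofilament genes Nefl, Nefm and Nefh, which fill large axons, had TpB medians of 214, 197 and 208 TPM and no MdB value above 0.42 TPM. The summed neuron list reached 1028 to 5165 TPM in TpB, where GC08 was highest, and 67.3 to 72.3 TPM in MdB; in cerebrum of GC_WT mice it was 5155 to 5619 TPM. Gap43, a growth cone gene, was not called (1.07 ± 0.90), with 1.45 to 123 TPM in TpB and 15.6 to 17.6 TPM in MdB.

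Cerebellar genes split the TpB libraries into separate sets. The 9 genes of the list summed to 1313, 1524 and 1995 TPM in GC05, GC07 and GC08 and to 136, 49.0 and 117 TPM in GC03, GC06 and GC10. In MdB the sum was 2.14 to 5.83 TPM, and in cerebrum it was 70.8 to 88.7 TPM. The granule cell gene Gabra6 read 101, 105 and 130 TPM in the first set and 0, 0.04 and 0.47 TPM in the second, and the Purkinje cell gene Pcp2 read 289, 341 and 488 TPM and 0, 0.25 and 4.25 TPM. Neither was called (adjusted p 0.0534 and 0.0505), although both had no MdB read. Pcp2 was called in 9 of 19 alternatives, among them the mouse as a block (adjusted p 0.00247) and DESeq2 (adjusted p 0.000123). Neurod1, a granule neuron factor, was called (adjusted p 0.0389) but read 0.12, 0.19 and 1.92 TPM in the second set, and the call was lost when any MdB library was left out (adjusted p 0.0825, 0.0822 and 0.0816 without GC03, GC07 and GC08) or when TpB GC05, GC07 or GC08 was (adjusted p 0.0604, 0.0615 and 0.0572). Zic2 was high in all 6, at 36.1 to 161 TPM, against at most 0.15 TPM in MdB. The sets do not match the library numbers, since GC05 belongs to the first range and GC07 and GC08 to the later range. Glial genes of the central nervous system were found in every TpB library at varied levels, with Mobp, an oligodendrocyte myelin gene, at 13.9 to 166 TPM and no read in MdB (at least 527-fold higher).

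**Figure D4:**
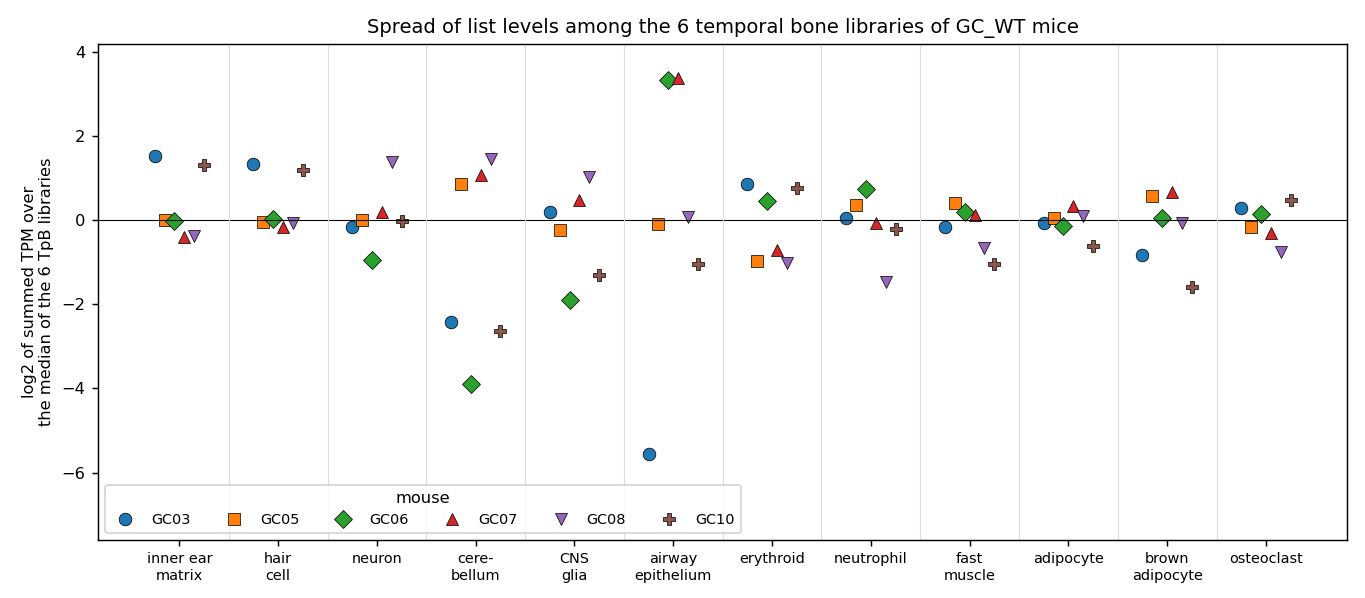
Log2 of the summed TPM of 12 gene lists over the median of the 6 TpB libraries of GC_WT mice, with a marker shape for each mouse. The inner ear lists are highest in GC03 and GC10, the cerebellum list is high in GC05, GC07 and GC08 and low in GC03, GC06 and GC10, and the airway list spans from 66.5 TPM in GC03 to 32722 TPM in GC07.

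Airway-type epithelium, as lines the middle ear and the nose, varied even more among the TpB mice. Its 10 genes summed to 66.5 TPM in GC03, 2939 in GC05, 31852 in GC06, 32722 in GC07, 3343 in GC08 and 1535 in GC10, and to 7.82 to 33.8 TPM in MdB. Bpifb1, a secreted protein of mucous glands, was the source of the 2 highest sums, at 25563 and 28196 TPM in GC06 and GC07 against 3.62 to 42.4 TPM in the other TpB libraries, and it was not called by edgeR (log2 fold change 9.71, adjusted p 0.0697). DESeq2 called it (9.70, adjusted p 6.73e-05), and with the mouse as a block its log2 fold change was 1.03 (adjusted p 0.835). Bpifa1, an abundant antimicrobial protein of airway surfaces, read 39.0 TPM in GC03, 1497 to 6086 TPM in the other 5 and at most 6.76 TPM in MdB (log2 fold change 10.13 ± 2.13, and 15.14 without MdB GC08). The cilium genes were steadier: Foxj1, the master factor of motile cilia, read 10.9 to 35.7 TPM against 1.73 to 3.71 TPM, and Tekt1, a tubulin-binding protein of cilia, 6.30 to 12.9 TPM against 0.09 to 0.18 TPM. In all, 8 of 9 tested genes of this list were higher in TpB. Stratified epithelium went mostly the other way, with 6 of 12 genes lower in TpB and 2 (Lor and Ivl) higher. With the mouse as a block the calls of Krt5, Krt6a and Lor were lost (log2 fold changes -5.88, -5.21 and 4.69, adjusted p 0.0524, 0.0570 and 0.0557), and that of Ivl was lost without any MdB library. Krt14, a basal keratin, read 2596, 2590 and 1864 TPM in MdB and 0.93 to 133 TPM in TpB (-5.38 ± 1.02), lowest in GC03. Trp63, the factor that maintains basal epithelium and is also active in dental epithelium, read 48.7 to 68.8 TPM in MdB and 1.5 to 11.2 TPM in TpB.

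Marrow transcripts were higher in TpB in 85 of 97 tested genes, with a single gene lower and a median log2 fold change of 5.09 (4.99 with bounds). The 17 red cell genes found in the table, all higher, summed to 29326 to 109140 TPM in TpB and to 883 to 1556 TPM in MdB, and spleen of GC_WT mice had 6716 to 25709 TPM. Of these the beta globin gene Hbb-bs read 8852, 18299 and 30941 TPM at the lowest, median and highest TpB library and 438, 264 and 410 TPM in MdB (log2 fold change 5.52 ± 0.73, adjusted p 0.000177). The alpha globin genes Hba-a1 and Hba-a2 and the beta pair Hbb-bs and Hbb-bt are near-identical copies, so the split of reads within each pair is uncertain. Gata1, the factor that drives red cell and platelet precursors, read 12.5, 31.0 and 60.7 TPM in TpB and had no MdB read (at least 483-fold higher). The red cell sum was 82389 to 109140 TPM in GC03, GC06 and GC10 and 29326 to 36716 TPM in GC05, GC07 and GC08, which are the sets into which the cerebellar genes fell with the opposite order.

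All 17 neutrophil granule genes were higher in TpB and none of their ranges overlapped. Their sum was 2218 to 10141 TPM in TpB, lowest in GC08, and 11.6 to 32.5 TPM in MdB. S100a9, a calcium-binding protein that fills mature neutrophils, read 684, 1940 and 2682 TPM at the lowest, median and highest TpB library and 5.20, 2.68 and 7.45 TPM in MdB (8.31 ± 0.73, adjusted p 1.66e-05). Genes of early granules, which are transcribed in marrow precursors and not in circulating neutrophils, were high too, with elastase (Elane) at 37.3 to 130 TPM and myeloperoxidase (Mpo) at 43.1 to 153 TPM in TpB and at most 0.38 and 0.55 TPM in MdB. Of 13 B lineage genes, 12 were higher, including the surrogate light chain partner Vpreb3 (16.4 to 37.1 TPM against at most 0.22 TPM) and Cd79a (14.7 to 50.1 TPM against 0.43 to 0.76 TPM). The exception was Blnk, an adaptor of B cell signalling, at 42.1, 50.4 and 72.1 TPM in MdB and 5.36 to 17.4 TPM in TpB (-2.34 ± 0.36). Platelet genes were higher in 9 of 10 cases, with Ppbp at 82.8 to 271 TPM against 1.28 to 4.87 TPM.

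Genes that mark cells also resident outside marrow differed less. Of the 7 macrophage genes, Csf1r and Mrc1 were higher (0.87 ± 0.16 and 0.72 ± 0.15), and Adgre1 was called with an adjusted p of 0.0457 that 12 of 21 alternatives lost, among them the mouse as a block (0.35, adjusted p 0.295). The complement gene C1qa was not called, at 76.8 to 102 TPM in TpB and 52.1 to 72.0 TPM in MdB (0.36 ± 0.18, adjusted p 0.107), but 4 of 21 alternatives called it, namely limma on TPM (adjusted p 0.00447 to 0.00762) and the first 3 TpB libraries alone (adjusted p 0.0278). Cxcl12, the chemokine with which marrow stroma holds blood stem cells, was higher, at 104 to 255 TPM against 58.4 to 73.0 TPM (1.5 ± 0.32). Of the 6 endothelial genes, 3 were higher, 1 was lower and 2 were not called, with a median log2 fold change of 0.34. Cdh5 and Tek were among the higher ones (0.67 ± 0.14 and 0.96 ± 0.14), and Plvap was the lower one (log2 fold change -0.42, adjusted p 0.0417), a call that 12 of 21 alternatives lost. Proliferation genes were higher in 9 of 10 cases, with Mki67 at 34.2 to 120 TPM in TpB and 5.33 to 12.8 TPM in MdB.

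Muscle transcripts were higher in TpB in 36 of 37 tested genes, with a median log2 fold change of 5.20. The 22 fast fibre genes summed to 12266 to 33220 TPM in TpB and to 774 to 1222 TPM in MdB, and were all higher. Skeletal actin (Acta1) read 2096, 3969 and 5604 TPM at the lowest, median and highest TpB library and 119, 73.4 and 115 TPM in MdB (log2 fold change 5.03 ± 0.49, adjusted p 3.09e-05). The fast myosin genes Myh4, Myh1 and Myh2 had log2 fold changes of 6.25 ± 0.85, 4.22 ± 0.46 and 7.41 ± 0.71, and that of Myh4 was 7.22 without MdB GC03. In MdB their levels did not follow each other: Myh4 was highest in GC03 (28.7 TPM, against 5.24 and 7.65 TPM) and Myh1 in GC08 (45.2 TPM, against 31.2 and 26.7 TPM). Slow fibre genes were lower in level but as one-sided, with the slow myosin gene Myh7 at 13.6, 31.8 and 64.2 TPM in TpB and 0, 0 and 0.06 TPM in MdB, where 3 reads were found and the ratio was 1487 (counting interval 509 to 7214). Atp2a2, the calcium pump of slow and cardiac muscle that most other cells carry as well, was the only muscle gene not called, at 128 to 364 TPM against 206 to 266 TPM. The regulators of muscle identity Myod1 and Myf6 read 6.03 to 13.0 and 11.9 to 25.2 TPM in TpB and at most 0.13 and 0.30 TPM in MdB.

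Fat transcripts were higher in TpB in 22 of 23 tested genes, with a median log2 fold change of 4.89 (4.65 with bounds). All 18 adipocyte genes were higher and none of their ranges overlapped. Complement factor D (Cfd, adipsin), secreted by fat cells, read 153, 284 and 483 TPM at the lowest, median and highest TpB library and had no MdB read, so that TpB was at least 1763-fold higher. Adiponectin (Adipoq), a fat cell hormone, read 29.4, 61.8 and 69.2 TPM in TpB and 0, 0 and 0.19 TPM in MdB, and the lipid droplet gene Plin1 read 15.3 to 55.6 TPM and at most 0.04 TPM. Enzymes of lipid synthesis and breakdown that other cells use, Fasn and Lipe among them, differed less (log2 fold changes 1.60 ± 0.17 and 1.43 ± 0.27). The adipocyte sum of 1748 to 3369 TPM in TpB compared with 170 to 189 TPM in MdB and 108570 to 124460 TPM in epididymal white fat (eWAT) of GC_WT mice. Of the 5 brown adipocyte genes, 4 were higher and 1 was not called, with a log2 fold change of -0.66. Ucp1, the uncoupling protein of brown fat, was found at 12.2 to 82.7 TPM in TpB and at most 0.15 TPM in MdB. Cidea read 32.2 to 128 TPM in TpB and 0.66 to 1.28 TPM in MdB. The brown adipocyte sum of 56.0 to 268 TPM was lowest in GC10, as was the adipocyte sum, and interscapular brown fat (iBAT) had 4447 to 4924 TPM.

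Bone genes proper did not share a direction, with 25 of 53 bone and cartilage genes higher in TpB and 19 lower, and a median log2 fold change of 0.38. Osteoblast and matrix genes were mostly lower in TpB (10 of 14, with Spp1 the exception). Collagen type I (Col1a1) read 18020, 13620 and 13646 TPM in MdB and 346, 468 and 899 TPM at the lowest, median and highest TpB library (log2 fold change -5.09 ± 0.35, adjusted p 4.41e-06). Osteocalcin (Bglap), a hormone and matrix protein of mature osteoblasts, read 48854, 43140 and 34192 TPM in MdB and 619 to 1464 TPM in TpB (-5.56 ± 0.33), although reads may be split between it and its copy Bglap2. The osteoblast factors Sp7 and Runx2 were lower in TpB too (-3.72 ± 0.19 and -2.33 ± 0.17), and odontoblasts also express the collagen and these factors. Osteocyte genes were divided, with 3 higher and 5 lower in TpB. Phex, an endopeptidase of osteocytes and odontoblasts, read 200 to 277 TPM in MdB and 4.92 to 7.94 TPM in TpB, whereas Fgf23, the phosphate hormone of bone, read 2.66 to 13.3 TPM in TpB with 1 read in MdB, and the Wnt inhibitor Sost 8.75 to 19.7 TPM and 2.57 to 3.24 TPM.

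Osteoclast genes were higher in TpB in 12 of 15 cases and lower in none. Acp5, the tartrate-resistant phosphatase of these cells, read 84.8 to 188 TPM in TpB and 8.13 to 14 TPM in MdB (3.46 ± 0.35). Cathepsin K (Ctsk), their main collagen-degrading enzyme, was not called, at 73.6 to 159 TPM and 83.3 to 96.4 TPM (0.14 ± 0.24). Mmp9 and Itgb3 of this list are also made by neutrophils and platelets. Of 16 cartilage genes, 9 were higher and 4 were lower in TpB. Ucma, a protein of resting cartilage, read 92.3 to 361 TPM in TpB and 0, 0 and 0.68 TPM in MdB (9.45 ± 1.05, and 13.14 without MdB GC08, which held all of its MdB reads), highest in GC03 and GC10 as the inner ear genes were. Collagen types II and XI, which form joint fibrils, parted, with Col2a1 at 15.7 to 34.8 TPM against 0.12 to 0.41 TPM and Col11a1 at 8.98 to 21.5 TPM against 160 to 233 TPM.

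The same comparison was made in the other groups of mice, each with 6 TpB and 3 MdB libraries except FL_KO, where 5 and 2 remained because mouse FL04 was left out. The study omitted this mouse from most of its own analyses. In GC_KO, 30.6% of 17803 genes were called higher in TpB and 27.4% lower; in FL_WT, 33.6% and 26.3% of 17851 genes; and in FL_KO, 25.5% and 19.4% of 18277 genes. The genes called in FL_KO numbered 8210, against 10943 with FL04 included and 4710 with the mouse as a block. Of the genes called in GC_WT, 10818, 10823 and 10928 were also tested in GC_KO, FL_WT and FL_KO. In that order, 85.1%, 87.0% and 69.8% of these were called in the same direction, and none was called in the opposite direction. The tooth genes lower in TpB numbered 44 of 50 in GC_KO, 45 of 50 in FL_WT and 44 of 51 in FL_KO, and the inner ear genes higher in TpB 58 of 63, 58 of 63 and 57 of 64. Marrow genes higher in TpB numbered 81 of 96, 88 of 98 and 67 of 97 in the same order, and fat genes 21 of 23, 20 of 21 and 20 of 23. Of the fat genes, 1 member of the brown adipocyte list was called lower in TpB in each of GC_KO, FL_WT and FL_KO. Muscle genes higher in TpB numbered 25 of 37 in GC_KO, 34 of 36 in FL_WT and 33 of 37 in FL_KO, and Acta1 had a log2 fold change of 4.31 in GC_KO (adjusted p 0.0542) and 5.89 in FL_WT (adjusted p 7.79e-05). Amelx had log2 fold changes of -15.2, -13.6 and -14.8 in GC_KO, FL_WT and FL_KO, and Coch of 4.83, 4.79 and 4.33.

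**Figure D5:**
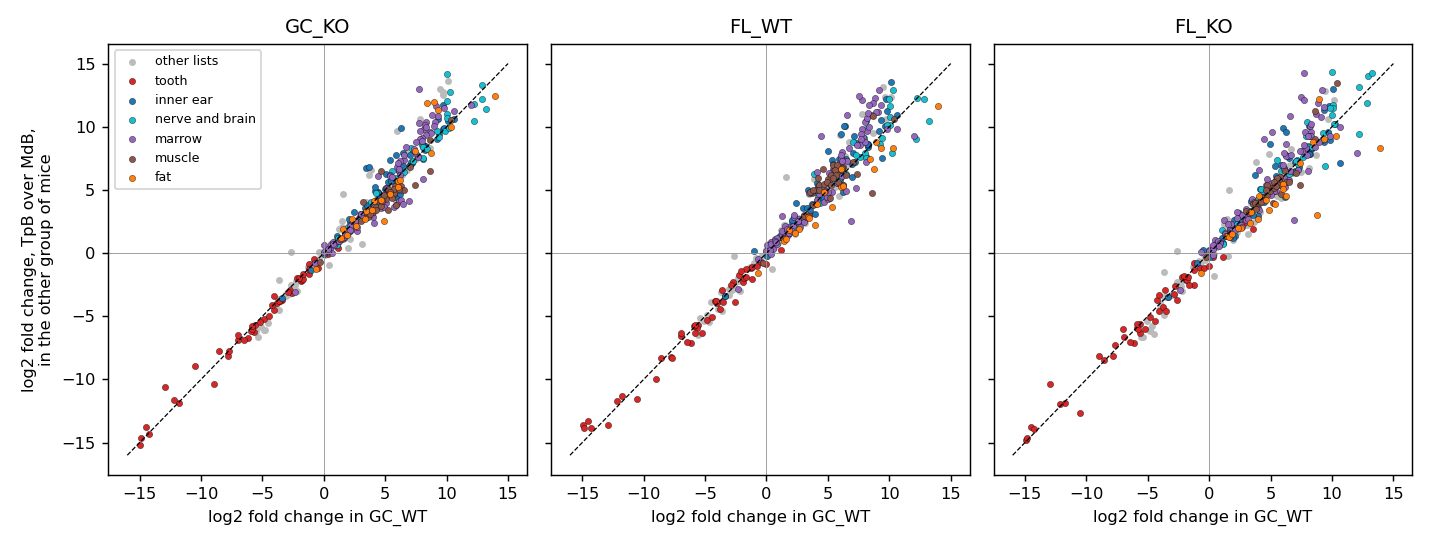
Log2 fold change of TpB over MdB of each list gene in GC_WT (x axis) and in GC_KO, FL_WT or FL_KO mice (y axis, a panel each), coloured by the area of the list, with the dashed line at equal changes. The points lie along the line from the tooth genes at the lower left, with Amelx at -14.94 in GC_WT and -15.2 in GC_KO, to the nerve and fat genes at the upper right.

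The TpB to MdB difference was then compared between groups of mice. With edgeR, the interaction was called in 0 of 18656 genes (0%) between GC_KO and GC_WT and in 0 of 18661 genes (0%) between FL_WT and GC_WT, while 286 and 590 genes passed 0.05 before adjustment. By DESeq2 it was called in 1 and 9 genes, and by limma in 2 and 0. Among the 5 smallest p-values for flight was that of Cyp2e1, a cytochrome P450 of liver and fat cells, at 78.5 TPM in TpB and 9.23 TPM in MdB of GC_WT mice and at 22.9 and 18.1 TPM in FL_WT mice (difference of log2 fold changes -2.84 ± 0.63, adjusted p 1). DESeq2 called this gene (-2.84 ± 0.62, adjusted p 0.0219). The smallest p-value for the genotype was that of Myocd, a smooth muscle and heart cofactor, whose mean level was at most 0.28 TPM in every group compared.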

How the data were processed

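Libraries were poly(A)-selected and strand-specific (SureSelect kit) and sequenced as single reads on a HiSeq2500. The authors aligned reads to mm10 with STAR 2.6.1 and quantified genes with RSEM 1.3.1, and they deposited a table of expected counts, TPM and FPKM for 54752 genes. Whether counting used strand is not given in the sources used here, so overlapping antisense genes cannot be told apart. The deposited expected counts were rounded and tested with edgeR 4.0.16 (quasi-likelihood, TMM, filterByExpr, Benjamini-Hochberg over all genes tested) in R 4.3.3, and the deposited TPM served for levels. FPKM columns (192) were not used. DESeq2 1.42.0, limma 3.58.1, other scalings and filters, each library left out and the mouse as a block were alternatives.

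The comparison and the 36 gene lists (398 genes, of which 397 were found by symbol; Ahsp was not) were chosen with earlier results of these data known, so the lists are no independent evidence of direction. Named genes were, per list, the member highest in TPM, up to 4 with the largest change among called genes with at least 5 TPM in a group and no overlap, and up to 2 called against the list; the 10 largest changes each way; all enamel, dentin, hair cell and inner ear matrix members; Nfe2l2; and the 5 smallest adjusted p-values of each interaction, of which those that carry a result are given. Some named genes are not reported here. Genes without a read in a group were set at 3 reads over that group for a lower bound of the fold. Data were simulated for 6 against 3 libraries (15642 genes), with both groups drawn from the means and dispersions of the TpB libraries. The levels and the spread of MdB were thus not represented. On these data edgeR recovered 33 of 100 genes changed by 1 on the log2 scale. It recovered 92 of 100 changed by 2, and called 8 of 15442 unchanged genes. Most genes were thus unchanged in the simulated data, whereas 11033 of 17959 genes were called between the bones. The rate of false calls in a comparison as broad as that of the bones was not tested. Mice GC03, GC07 and GC08 gave both bones, so same-numbered libraries are paired by animal, and their deviations from the group means had correlations of -0.002, -0.026 and -0.021. The p-values measure the spread between these mice, and intervals of ratios cover counting error only. Gene positions are from a later GENCODE release on the same build, in which 17302 of the 17959 tested genes had the same versioned identifier.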

Additional observations from a re-analysis of the deposited data

Results flagged for a closer look

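Of 201 values checked among the 6 TpB libraries, 8 had a library that stood apart from the other 5 by Dixon's ratio on log2(TPM + 1). Chance flags about 1 in 20 such groups. In each the library was low.

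In 5 of these values the low library was GC08. They were the neutrophil protease gene Elane (37.25 TPM, others 84.3 to 130 TPM), the B lineage genes Cd79a (14.74 TPM, others 32.5 to 50.1 TPM) and Blnk (5.36 TPM, others 12.0 to 17.4 TPM), and the platelet genes Gp1ba (5.14 TPM, others 12.2 to 15.2 TPM) and Itgb3 (14.69 TPM, others 32.1 to 40.9 TPM). GC08 was also the TpB library with the highest neuron sum, at 5165 TPM.

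The airway gene Bpifa1 stood at 39.02 TPM in GC03, where the others had 1497 to 6086 TPM, and GC03 also had the lowest sums of the airway and stratified epithelium lists. Adipoq stood at 29.35 TPM in GC10 (others 50.7 to 69.2 TPM), and Fmod at 48.88 TPM in GC06 (others 88.0 to 123 TPM).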

How the results depend on the processing

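Of 169 named genes, 163 were called, and 145 of these were called under every alternative that tested them. The calls lost most often were those of Plvap and Adgre1 (12 of 21 alternatives each), Neurod1 (8 of 19), Barx1 (5 of 17), Kera (5 of 19) and Scgb3a1 (5 of 15). The direction turned for Tbx1 alone, which was not called: its log2 fold change of 0.05 became -0.007 with the replicate block, -0.067 with mice GC03, GC07 and GC08 alone, -0.159 with the later TpB libraries, and -0.093, -0.114 and -0.146 without MdB GC03, MdB GC07 and TpB GC06 (leaving out each library gave -0.146 to 0.138). Calls were gained by Pcp2 (9 of 19), C1qa (4 of 21), Cd34 (3 of 21) and Bpifb1 (1 of 21). Leaving out 1 library moved the fold by more than 1.5 times in 47 of the 163 called genes, in 30 of them without MdB GC08, in 24 without MdB GC03, in 15 without MdB GC07, in 5 without TpB GC06 and in 2 without TpB GC03. Otog moved from 9.32 to 14.11 without MdB GC08, which held all of its MdB reads, so that the second value depends on the prior count.

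Leaving out each library in turn gave 9609 to 11133 called genes (4937 to 6150 higher, 4546 to 5282 lower), and 43 to 44 tooth, 55 to 57 inner ear, 26 to 33 nerve and brain, 80 to 89 marrow, 35 to 36 muscle and 22 fat genes. Counts past the threshold moved by more than 1.5 times in these cases. With limma on genes of at least 5 TPM, 2703 (pseudocount 1) or 2691 (0.1) were lower and 36 inner ear genes higher, since low genes were left out. A 2-fold requirement left 6905 genes, 2183 of them lower, so that 68.4% were higher in TpB against 55.8%. DESeq2 gave 1 and 9 interactions, and limma 2 for the genotype. In FL_KO the mouse as a replicate block gave 4710 called genes against 8210. In GC_WT the counts moved by less than 1.5 times with the block, which gave 8615 called genes (5159 higher, 3456 lower). The same held with the 3 paired mice, which gave 8258. Among named genes the block lost the calls of Adgre1, Barx1, Kera, Krt5, Krt6a and Lor, gained that of Pcp2 and changed no other call. With CPM on TMM factors in place of TPM, the log2 TpB to MdB ratio of the summed level moved in 11 of the 36 lists. In the other 25 it changed by less than the larger within-bone SD of the log2 sums, and no ratio changed direction. The causes were not tested. With 3 MdB mice the precision of small changes was limited.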

Other observations

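Enamel transcripts were also found in libraries of soft tissues of GC_WT mice. Amelx was at 5.54 to 42.6 TPM in the 6 spleen libraries and at 2.87 to 87.6 TPM in the 6 liver libraries. It was at 0 TPM in every eWAT, thymus, kidney and cerebrum library and reached 0.10 TPM in iBAT. By the library numbers in the labels, the spleen and liver libraries come next after the MdB libraries. Those of eWAT, iBAT, thymus, kidney and cerebrum come later. The part of the library numbers in these values was not tested, so they do not show that spleen or liver makes the transcript. In TpB Amelx lay between 0 and 8.31 TPM, so the spleen and liver values were of the order of those in TpB or above them. All were far under the 58458 TPM or more of MdB.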
